A study of Rattus norvegicus with 6 samples.

Results

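The cytosolic ribosomal protein genes were examined for chromatin accessibility in rat pancreatic islets before and after postnatal maturation. Accessible sites (ACSs) were assigned to the genes by the nearest-gene symbol given in the deposited table: every ACS whose symbol was Rpl or Rps followed by a digit, or Rplp0, Rplp1, Rplp2 or Rpsa, was taken, and the S6 kinase symbols (Rps6k) were left out. This gave 406 of the 101603 distinct ACSs, at 71 gene symbols. Accessibility was measured by ATAC-seq, in which the Tn5 transposase inserts sequencing adapters where DNA is not covered by nucleosomes, and the value of an ACS is the number of Tn5 integrations in it. The groups were dissociated islet cells of 3 adult male Sprague–Dawley rats of 3 months (Adult, replicates 4, 5 and 6) and of pups at postnatal day 10, P10 (replicates 1, 2 and 3), each pup library a mix of a few animals of 1 of 3 litters. The rats were untreated and the cells unsorted. The pups were of both sexes. Per the paper's methods, pup pancreases were pooled and digested by hand shaking, whereas in adults collagenase was injected into the duct of the pancreas. Age, sex, single animal against mixed litter and islet isolation thus differ together between the groups and cannot be told apart. In whole islets, a difference in the number of cells of a type likewise cannot be told apart from a difference in accessibility per cell.

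Ribosomal proteins coat and stabilise the RNA of the ribosome. Proteins of the small subunit (Rps genes) help to read the messenger RNA, and those of the large subunit (Rpl genes) surround the centre where the peptide bond is made. All are needed in near-equal amounts, so their genes are active in every cell. Most of their messages start with a C followed by a run of C and T, the 5′ terminal oligopyrimidine tract, through which mTORC1 signalling controls their translation. β-cells make large amounts of secretory protein, and dividing cells, which are frequent in the islets of young pups, need new ribosomes.

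Of the 77 cytosolic ribosomal protein genes in the list used here, 65 had at least 1 ACS: 40 of 46 for the large subunit and 25 of 31 for the small subunit. The remaining 12, among them *Rps6*, *Rps19* and *Rps4x*, had no ACS under these symbols in the table and were not analysed here. The other symbols were paralogues (such as *Rpl22l1* and *Rps4y2*) and *Rps19bp1*, which encodes a protein that binds Rps19 and is no ribosomal protein. By the class given in the table, 70 of the 406 ACSs lay at a transcription start site (TSS class), 39 were proximal and 297 distal. A TSS-class ACS was found for 65 of the 71 symbols. The 6 without one were *Rpl7*, *Rpl9*, *Rpl15*, *Rpl39l*, *Rps27l* and *Rps28*. The start itself lay within the ACS in 60 of the 70. Both ACSs of *Rps9* were also listed with a second gene that has no symbol. The TSS-class ACSs of *Rps27a* and *Rpl37a* held the start of another listed gene or had it within 500 bases of their edges. The values of these ACSs cannot be given to 1 gene alone.

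The promoters are shown first, because they hold the sequence that sets this gene family apart. Promoters of 300 bases, from 250 before to 50 after the annotated start, were taken from RefSeq (build GRCr8) by gene ID and were found for 54 of 72 gene entries, with 55 promoters in all. The other 18 included *Rpl7*, *Rpl8*, *Rpl15*, *Rpl23a*, *Rpl27*, *Rpl30*, *Rpl32*, *Rpl37*, *Rpl37a*, *Rps9*, *Rps20*, *Rps25* and *Rps29*. The stretches below run from 60 bases before to 20 after the start, 5′ to 3′ on the strand of the gene. The longest run of C and T that touches the 5 bases on either side of the start is in capitals. The first 5 are of the genes whose TSS-class ACSs were most accessible per kb, and *Rpl4* is of a gene with the least accessible ones. *Rpl3* and *Rps2* are of genes whose start was called lower in adults, calls that did not hold in every alternative test. *Rpl22* is the paralogue of *Rpl22l1*, and *Rps3a* has the ACS with the largest gain.
Rps14 (chr18:56498200-56498279, + strand): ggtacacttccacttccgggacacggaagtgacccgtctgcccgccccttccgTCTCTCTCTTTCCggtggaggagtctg
Rps23 (chr2:23814457-23814536, + strand): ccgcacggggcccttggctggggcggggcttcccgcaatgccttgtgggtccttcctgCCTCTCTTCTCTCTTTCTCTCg
Rpl13a (chr1:104748894-104748973, - strand): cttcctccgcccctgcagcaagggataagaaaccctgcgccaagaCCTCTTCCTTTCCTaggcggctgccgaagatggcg
Rplp0 (chr12:46718371-46718450, - strand): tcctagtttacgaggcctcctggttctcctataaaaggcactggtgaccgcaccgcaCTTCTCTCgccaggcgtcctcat
Rpl22l1 (chr2:113683136-113683215, + strand): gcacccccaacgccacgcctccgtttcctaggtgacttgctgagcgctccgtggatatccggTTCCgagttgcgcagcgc
Rpl4 (chr8:73566417-73566496, + strand): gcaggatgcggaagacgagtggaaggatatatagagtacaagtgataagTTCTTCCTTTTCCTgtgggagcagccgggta
Rpl3 (chr7:113507971-113508050, - strand): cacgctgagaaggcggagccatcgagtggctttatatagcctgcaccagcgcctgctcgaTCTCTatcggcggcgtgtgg
Rps2 (chr10:14251788-14251867, + strand): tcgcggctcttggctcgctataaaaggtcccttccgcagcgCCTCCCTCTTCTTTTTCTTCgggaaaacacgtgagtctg
Rpl22 (chr5:168117901-168117980, + strand): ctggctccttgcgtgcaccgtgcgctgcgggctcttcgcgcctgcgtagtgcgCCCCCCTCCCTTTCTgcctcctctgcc
Rps3a (chr2:173827023-173827102, - strand): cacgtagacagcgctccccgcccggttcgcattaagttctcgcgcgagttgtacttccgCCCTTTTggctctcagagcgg

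A run of at least 8 C or T bases at the start was present in 33 of the 55 ribosomal protein promoters (60%), against 2903 of all 33469 promoters of the table (8.67%) and 7.71% of the 8293 promoters of genes with a TSS-class ACS. The median run was 9 bases in the family and 3 over all promoters. The longest, of 21 bases, was that of *Rps23*. The first base was C in 29 of 55 (52.7%), against 24.1% of all promoters and 30.7% of those of genes with a TSS-class ACS. *Rpl22l1*, a paralogue of the large-subunit gene *Rpl22*, had a run of 4 bases, whereas *Rpl22* had 15. Since annotated starts can be off by some bases, a short run in this window is no evidence that a tract is absent.

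Motifs were searched as exact letters on both strands of the 300 bases. CCGGAAG, the core bound by ETS factors, occurred in 18 of the 55 promoters (32.7%), against 8.75% of all promoters and 17.9% of those of genes with a TSS-class ACS. AAGATGG, the core bound by YY1, occurred in 7 (12.7%, against 7.01% and 7.95%). The TATA box TATAAA was found in 8 (14.5%, against 14.2% and 6.13%), among them *Rplp0*, *Rps2* and *Rpl3*. The GC box GGGCGG stood in 33 (60%), above the 33.1% of all promoters but below the 65.9% of genes with a TSS-class ACS. The E box CACGTG (5 of 55, 9.09%, against 6.42% and 9.72%), the cyclic AMP response element TGACGTCA (2, 3.64%, against 1.83% and 3.46%) and the NRF1 core GCATGCGC (2, 3.64%, against 2.47% and 5.17%) were rare and no more frequent, or barely so, than in genes with a TSS-class ACS. A match of letters is not a measured binding site. The promoter of *Rps14*, the most accessible start of the family per kb, is given in full up to base 20 with each match of these motifs in capitals: 2 GC boxes, 2 ETS cores and 1 YY1 core.
Rps14 (chr18:56498010-56498279, + strand): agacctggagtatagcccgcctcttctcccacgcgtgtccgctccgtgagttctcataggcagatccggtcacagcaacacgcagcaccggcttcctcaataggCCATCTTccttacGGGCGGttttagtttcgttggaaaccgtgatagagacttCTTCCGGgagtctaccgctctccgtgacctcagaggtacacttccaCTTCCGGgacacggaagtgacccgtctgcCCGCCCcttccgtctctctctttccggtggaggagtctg

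The adult libraries held 7916919 to 11903909 integrations in ACSs, and the P10 libraries, each with more than any adult one, 13491534 to 21168463. By the paper's total reads the P10 libraries were not all sequenced deeper. The share of reads that fell in ACSs thus also differed with age, and its effect was not tested. Values are given as CPM, the integrations in an ACS scaled to a common library total, after TMM scaling, a correction for differences in library composition. Log2 fold changes are of adult over P10, so a positive value means more integrations in adults. An ACS was called Up (higher in adults) or Down (higher in P10) at a p under 0.05 and an FDR under 0.2 by edgeR's quasi-likelihood test, with Benjamini-Hochberg adjustment over all 101603 ACSs. Among islet marker genes, *Ins1* and *Ins2*, the insulin genes, were called Down at the start, and *Ucn3*, a gene of mature β-cells, was called Up. P10 replicate 1 stood highest at both insulin genes, with 203 CPM against 105.6 and 134.1 at *Ins1* and 17.7 against 8.77 and 7.77 at *Ins2*. For 7 of 10 β-cell genes with a TSS-class ACS, the summed CPM over these was 178.5 to 244.5 in adult and 218.7 to 352.9 in P10 libraries. Of the 8 TSS-class ACSs of cell cycle genes, 0 were called Up and 3 Down (*Plk1*, *Aurkb* and *Pcna*), and 5 had a log2 fold change below 0, the highest being 0.20. The summed CPM over TSS-class ACSs was 259 to 275 in adult and 276 to 304 in P10 libraries for 8 of 9 cell cycle genes, 4.34 to 6.53 and 7.08 to 8.49 for 2 of 9 acinar genes, and 17.5 to 20.2 and 24.7 to 34.5 for 3 of 5 duct genes. It was 66.9 to 83.3 and 81.9 to 90.6 for 5 of 6 genes of the other endocrine cells, 23.5 to 31.7 and 28.9 to 35.5 for 2 of 5 endothelial genes and 12.3 to 16.5 and 16.5 to 21.1 for 3 of 5 mesenchymal genes. The 5 immune genes had no TSS-class ACS. The starts of the duct genes *Sox9* and *Cftr*, and both TSS-class ACSs of *Hhex*, a gene of the other endocrine cells, were called Down. The part of these cells in the results below was not tested.

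Ribosomal protein gene starts were open in both ages, but few ranked among the most accessible starts of the islet. The median TSS-class ACS of the family had 13.6 CPM, against 16.7 CPM over all 11055 TSS-class ACSs, and its median rank was percentile 42.1 by CPM and 43.5 by CPM per kb of ACS. By CPM, 3 of the 70 lay in the highest 10% of all starts and 5 in the lowest 10%. By CPM per kb, 1 lay in the highest 10% and 4 in the lowest. The large subunit (40 ACSs of 37 genes) had a median of 20.98 CPM per kb and the small subunit (25 ACSs of 24 genes) 22.6. By the run of C and T at the start, the median level was 22.2 CPM per kb for 33 ACSs of genes with a run of at least 8 bases and 20.04 for 20 ACSs of genes with a shorter one, with ranges of 8.11 to 89.6 and 10.9 to 48.2.

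The 5 most accessible starts per kb were those of *Rps14*, *Rps23*, *Rpl13a*, *Rplp0* and *Rpl22l1*. *Rps14*, a small-subunit protein linked to a form of human anaemia when 1 copy is deleted, led with 89.6 CPM per kb (Rn5 chr18:55276395-55277060). Its adult libraries had 70.9, 52.0 and 71.8 CPM and its P10 libraries 63.1, 51.1 and 49.1. *Rps23*, which lies at the decoding centre, followed with 58.4 CPM per kb (chr2:19698743-19699894), with 72.7, 61.4 and 85.2 CPM in adults and 50.9, 65.6 and 67.5 in P10. The ages overlapped at both starts. *Rpl13a* (51.5 CPM per kb), *Rplp0* of the ribosomal stalk (48.6) and *Rpl22l1* (48.2) had almost the same level, and the order among them was not larger than the spread of their libraries. *Rpl22l1* had 43.9, 38.6 and 34.2 CPM in adults and 38.4, 40.3 and 37.1 in P10 (log2 fold change 0.01 ± 0.16 SE, n = 3 libraries per age).

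The lowest starts per kb belonged to *Rps9* and *Rpl4*. The ACS inside *Rps9* had 4.24 CPM per kb and 0.633 to 1.27 CPM in every library, but a second, wider ACS of *Rps9* over the start had 19.5 CPM per kb. *Rpl4* had a pair of narrow ACSs, one before and one over its start, of 8.11 and 9.29 CPM per kb. For the former, the adult libraries had 2.26, 2.24 and 1.42 CPM and the P10 libraries 3.16, 2.35 and 3.07. The adult libraries of *Rpl4* were the lower ones without overlap, yet the difference was not called (log2 fold change -0.52 ± 0.35 SE, edgeR adjusted p = 0.435).

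**Figure D1:**
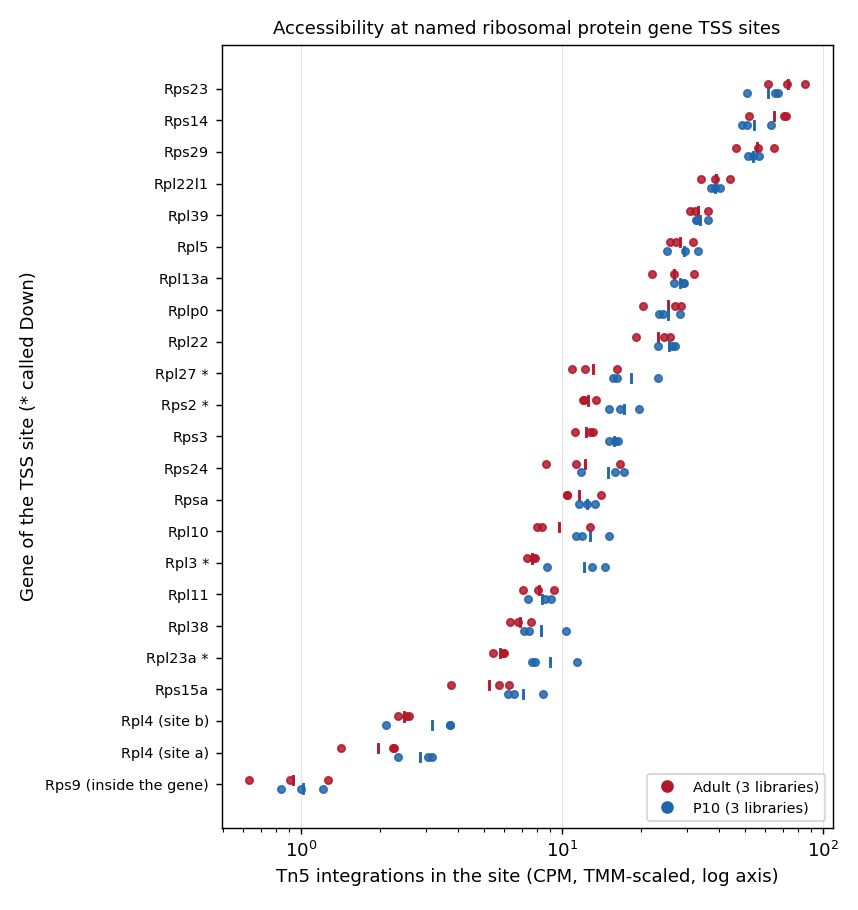
Tn5 integrations at the named ribosomal protein gene starts, in CPM on a log axis, with 1 point per library (3 Adult, 3 P10) and a short bar for the mean of each age. The points run from 0.633 CPM at the ACS inside *Rps9* to 85.2 CPM at *Rps23*, and at the 4 starts marked as called Down the adult means lie below the P10 means.

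Between the ages, most starts of ribosomal protein genes had a slightly lower level in adults, and none was called Up. Of the 70 TSS-class ACSs, 0 were called Up and 5 Down (7.14%) by edgeR's test, against 2.73% Up and 7.87% Down among all TSS-class ACSs, so the share called Down was near that of starts in general. DESeq2 and limma (voom and cyclic loess) also called 0 Up. At an unadjusted p under 0.05, 7 of the 70 passed, all of them lower in adults. The share of all TSS-class ACSs that passed this limit is not given here, so the 7 are no result about the family. The median log2 fold change was -0.20, with 57 of 70 values below 0, against -0.10 over all TSS-class ACSs, of which 65.6% were below 0. Values ran from -0.66 to 0.28. The SE of a single start ran from 0.16 to 0.46 with a median of 0.22, which is not the error of the family median. Between replicates of an age, the SD of the family's median log2 CPM at starts was 0.16. Relative to the median of all TSS-class ACSs it was 0.069. Every adult library was below every P10 library at 13 starts and above at 1 (*Rps20*). These 14 of 70 (20%) compare with 20.8% of all 11055 TSS-class ACSs on which the ages did not overlap. Over all 11055, every adult library was below every P10 library at 1723 and above at 579, so starts in general leaned the same way.

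The size of the shift depended on how libraries were scaled, while its place relative to other starts moved less. With TMM factors taken from TSS-class ACSs alone, 49 of the 70 values were below 0, 3 were called Down and 1 Up (*Rps14*), whereas with column sums or cyclic loess 61 and 62 were below 0 and 15 and 20 were called Down. The median of all TSS-class ACSs moved as well, to -0.007, -0.20 and -0.19 under these 3 scalings. Their calls under each scaling are not given here. Scaling by total reads lowered the median of every ACS in the table to -0.84 and that of the family's starts to -1.04. Against the median of all TSS-class ACSs, that of the family was lower by -0.10 in the main test and by values from -0.12 to -0.07 under all alternatives. Per 100 integrations in TSS-class ACSs, the family received 0.457, 0.458 and 0.450 in the adult libraries and 0.489, 0.481 and 0.460 in the P10 libraries. All 3 adult values were below the 3 P10 values, the nearest pair being adult replicate 5 and P10 replicate 3.

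**Figure D2:**
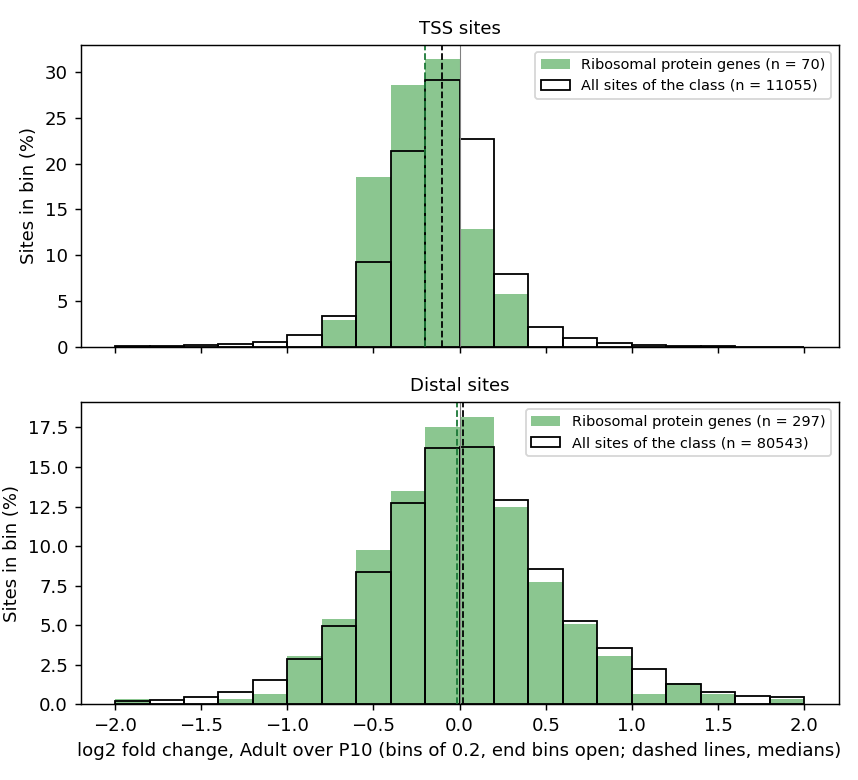
Share of ACSs (%) per bin of log2 fold change (Adult over P10) for ribosomal protein genes (filled) and all ACSs of the same class (outlined), with dashed lines at the medians. At the TSS the family median is -0.20 against -0.10 for all, and at distal ACSs it is -0.01 against 0.02.

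The starts called Down included those of *Rpl3*, *Rpl23a*, *Rpl27* and *Rps2*, described after their values were seen. *Rpl3* encodes a large-subunit protein close to the peptidyl transferase centre. Its start (chr7:121292235-121292784) had 7.86, 7.30 and 7.73 CPM in adults and 12.97, 14.6 and 8.78 in P10. The adult libraries were tight and the P10 libraries spread, without overlap (log2 fold change -0.66 ± 0.24 SE, edgeR adjusted p = 0.0891), and the call was lost without P10 replicate 2 (adjusted p = 0.373). *Rpl23a*, which lies beside the exit of the peptide tunnel, had 5.96, 5.94 and 5.41 CPM in adults and 11.4, 7.63 and 7.88 in P10 (chr10:66190472-66190860). P10 replicate 1 stood highest, and the change of -0.64 ± 0.26 SE (edgeR adjusted p = 0.129) was not called without it (0.374), without adult replicate 4 (0.206) or without adult replicate 6 (0.256).

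*Rpl27*, another large-subunit gene, had 16.2, 10.9 and 12.3 CPM in adults and 23.2, 15.6 and 16.2 in P10 (chr10:89150497-89151040). The ages overlapped there (-0.49 ± 0.22 SE, edgeR adjusted p = 0.194). *Rps2*, near the entry of the messenger RNA channel, had 12.0, 13.4 and 12.1 CPM in adults and 16.7, 19.8 and 15.1 in P10 without overlap (chr10:13903431-13904133, -0.45 ± 0.21 SE, edgeR adjusted p = 0.198). The calls of *Rpl27* and *Rps2* lay just inside the FDR limit, and each held in 2 of the 6 tests that left out 1 library. *Rpl23* (-0.59, adjusted p = 0.231) and *Rps18* (-0.49, adjusted p = 0.235) lay just outside it. At an FDR under 0.05 none of the 5 was called. Their count was 1 without adult replicate 6, 2 without P10 replicate 1 and 3 without P10 replicate 2, and no start was called in all 6 such tests.

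Fold change followed level in this family as it did in starts in general. The 35 starts above the family's median CPM per kb had a median log2 fold change of -0.13, and the other 35 one of -0.33. Over all TSS-class ACSs, the medians above and below the same level were -0.05 and -0.21. Across the 70 starts, Pearson's r between log2 CPM per kb and log2 fold change was 0.39, against 0.33 over all TSS-class ACSs. Both measures come from the same libraries, so the value is a description only. The starts with the highest levels, *Rps14* (0.25 ± 0.16 SE) and *Rps23* (0.25 ± 0.16 SE), were on the side of adults but were not called (edgeR adjusted p = 0.413 and 0.405). Without adult replicate 5 both were called Up, with adjusted p of 0.115 and 0.155.

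**Figure D3:**
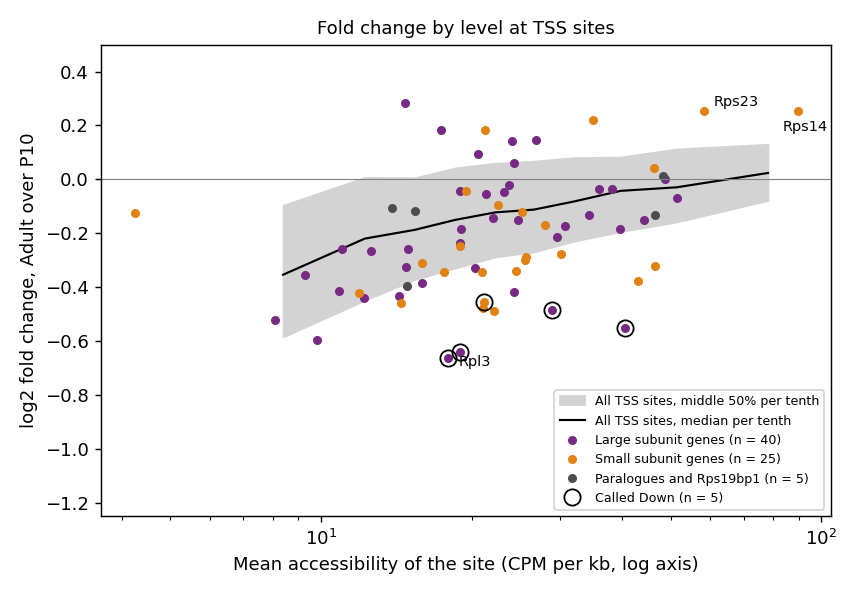
Log2 fold change (Adult over P10) against mean accessibility (CPM per kb, log axis) of the 70 ribosomal protein gene starts, coloured by subunit, over the median and the middle 50% of all TSS-class ACSs in 10 bins of level. The 5 starts called Down are ringed, and *Rps14* and *Rps23* lie at the upper right with 0.25 each.

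Both subunits leaned the same way. The large-subunit starts had a median log2 fold change of -0.18 with 4 of 40 called Down, and the small-subunit starts -0.29 with 1 of 25 called Down. The 4 starts listed under paralogue symbols had a median of -0.11 with none called at p under 0.05 and FDR under 0.2. They include 1 listed as *Rpl36al* that RefSeq names *Rpl36a*, a large-subunit gene. The genes picked here for roles beyond the ribosome were not called at their starts in the main test. *Rpl5* and *Rpl11*, which bind the p53 inhibitor Mdm2 when ribosome assembly fails and are mutated in Diamond–Blackfan anaemia, had log2 fold changes of -0.05 ± 0.18 SE and -0.04 ± 0.24 SE. The *Rpl5* start had 31.8, 26.0 and 27.2 CPM in adults and 33.1, 29.6 and 25.2 in P10, and the *Rpl11* start 7.05, 8.08 and 9.28 against 9.06, 8.56 and 7.40. The ages overlapped at both. *Rplp0*, often used as a reference gene for expression, had 27.1, 28.6 and 20.4 CPM in adults and 28.3, 24.3 and 23.6 in P10, with a log2 fold change of 0.00097 ± 0.18 SE.

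*Rps3*, a small-subunit protein that also takes part in DNA repair, had 12.8, 13.2 and 11.2 CPM in adults and 15.1, 16.3 and 16.0 in P10. The ages did not overlap there, but the difference was not called (-0.34 ± 0.21 SE, edgeR adjusted p = 0.362). With column sums, with cyclic loess and among ACSs with a mean count of at least 50 it was called Down, with adjusted p of 0.176, 0.130 and 0.137. *Rpsa*, the laminin receptor precursor, had a log2 fold change of -0.10 ± 0.22 SE, *Rpl38*, needed for patterning of the skeleton in mice, -0.27 ± 0.25 SE, and *Rpl22* -0.13 ± 0.18 SE. None of these 3 passed the test, and the ages overlapped at each. *Rpl10*, which the table places on chromosome 1 and RefSeq on chromosome X, had 12.8, 7.99 and 8.38 CPM in adults and 15.1, 11.9 and 11.3 in P10 (-0.38 ± 0.24 SE, edgeR adjusted p = 0.381). It was called Down with cyclic loess (adjusted p = 0.130), among ACSs with a mean count of at least 50 (0.160) and without adult replicate 4 (0.158).

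Among members on chromosome X, of which males have 1 copy, the start of *Rpl39* had a log2 fold change of -0.03 ± 0.17 SE and the start listed as *Rpl36al* (RefSeq *Rpl36a*) -0.13 ± 0.17 SE. The median over the 344 TSS-class ACSs of that chromosome was -0.16, with adults all male and pups of both sexes. The symbol *Rpl36al* covers a second gene entry on chromosome 18 of the Rn5 table.

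Genes that work with ribosomal proteins also had medians below 0 at their starts, as did all TSS-class ACSs together (median -0.10, 2.73% Up and 7.87% Down). Of 31 translation factor genes listed, 21 had 24 TSS-class ACSs, of which 0 were called Up and 3 Down, with a median log2 fold change of -0.22. The 3 were *Eif4a1*, the helicase that unwinds message leaders (-0.55 ± 0.21 SE, edgeR adjusted p = 0.105), *Eif5a*, which assists peptide bond formation (-0.48 ± 0.17 SE, adjusted p = 0.0885), and *Eif3a*, the largest subunit of the initiation factor eIF3 (-0.45 ± 0.18 SE, adjusted p = 0.116). *Eif5a* had 27.2, 25.3 and 21.7 CPM in adults and 33.8, 37.9 and 31.9 in P10, without overlap. Of 40 ribosome biogenesis genes, 28 had 29 TSS-class ACSs with 0 called Up, 1 called Down and a median of -0.18. That 1 was *Nop2*, a methyltransferase of ribosomal RNA, with -0.53 ± 0.22 SE (adjusted p = 0.146). Mitochondrial ribosomal protein genes had a median of -0.05 over 61 TSS-class ACSs, 1 called Up and 3 Down. The difference between the cytosolic and mitochondrial families was not tested.

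Away from the starts, the members' ACSs changed in both directions. Over all 406 ACSs, 32 were called Up (7.88%) at 19 genes and 22 Down (5.42%) at 17 genes, against 12.3% Up and 6.63% Down over the whole table. The paper, with edgeR at the same limits, reports the reverse balance over its ACSs, with more Down than Up. The reason for this difference was not tested. The ages did not overlap at 86 of the 406 (21.2%), against 24.7% over the whole table. They did not overlap at 47 of the 54 called ones, but these were selected by their difference between the ages. Of the 297 distal ACSs, 31 were Up (10.4%) and 13 Down (4.38%), against 13.8% and 6.45% of all distal ACSs. Of the 39 proximal ones, 1 was Up and 4 Down, against 11.2% and 6.71%. The distal median log2 fold change was -0.01, against 0.02 over all distal ACSs, and it ranged from -0.12 without adult replicate 5 to 0.02 without adult replicate 6. The split of calls depended on scaling: it was 24 Up and 48 Down with column sums, 26 and 45 with cyclic loess, 23 and 41 among ACSs with a mean count of at least 50, 48 and 14 with TMM factors from TSS-class ACSs, and 1 and 264 with total reads. The whole table shifted too. Of all 101603 ACSs, 10447 were Up and 10732 Down with column sums, and 11068 and 9101 with cyclic loess. With TMM factors from TSS-class ACSs it was 15982 and 4318, and with total reads 1062 and 61663. Among the 60990 ACSs with a mean count of at least 50, it was 9418 and 7217. Without P10 replicate 2 the calls fell to 19 Up and 11 Down, and without adult replicate 6 there were 10 Down. Of the 54 calls, 18 held in all 6 tests that left out 1 library, and 0 of these 18 were at a start.

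These ACSs carry the name of a ribosomal protein gene because it is the nearest gene in the table, and nothing in the data ties their accessibility to that gene. Of the distal ACSs, 124 had their centre 10 to 100 kb from the start, 115 between 100 and 500 kb, and 57 beyond 500 kb. These bins do not cover all 297, since a distal ACS with its centre within 10 kb falls in none. Within 100 kb, 19 were Up and 6 Down, against 13.9% and 6.69% of all distal ACSs at that distance. From 100 to 500 kb, 9 were Up and 4 Down, against 14.2% and 6.24% of all. Beyond 500 kb, 3 were Up and 3 Down, against 11.7% and 6.12%. Of the 54 called ACSs, spread over 28 genes, 8 genes had calls in both directions.

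The largest gain of the family lay near *Rps3a*, a small-subunit gene. An ACS 74.0 kb downstream of its start (chr2:204761457-204761714) had 10.5, 8.08 and 11.2 CPM in adults and 3.30, 2.85 and 1.85 in P10. Each adult library was above each P10 library (log2 fold change 1.89 ± 0.28 SE, edgeR adjusted p = 6.1e-05). A second, 46.2 kb upstream (chr2:204881627-204882021), rose from 9.20, 7.85 and 6.50 CPM in P10 to 16.7, 16.8 and 13.2 in adults (0.99 ± 0.23 SE, adjusted p = 0.00489). The start of *Rps3a* between them had 25.9, 24.6 and 27.7 CPM in adults and 34.1, 26.3 and 27.4 in P10, with -0.17 ± 0.18 SE and no call. The distal gains and the level of the start thus did not move together at this gene.

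*Rpl22l1*, whose protein can replace Rpl22 in the ribosome, had the gain with the next smallest p, 64.6 kb downstream (chr2:135124526-135124879). Adults had 17.4, 16.6 and 16.6 CPM and P10 libraries 6.6, 5.42 and 8.83 (1.27 ± 0.23 SE, edgeR adjusted p = 0.000471), without overlap, while the start did not differ beyond its error. Near *Rpl15*, which has no TSS-class ACS in the table, the most accessible of the named distal ACSs (chr15:12474960-12475461, 224 kb downstream) had 43.2, 39.4 and 45.3 CPM in adults and 27.8, 23.7 and 25.6 in P10 (0.73 ± 0.17 SE, adjusted p = 0.00471). An ACS 20.4 kb downstream of *Rps7*, a small-subunit gene, had 4.52, 5.26 and 6.06 CPM in adults and 2.60, 1.43 and 1.85 in P10 (1.40 ± 0.32 SE, adjusted p = 0.00521). One 75.4 kb downstream of *Rps20* had 4.88, 5.26 and 5.93 against 2.23, 2.21 and 2.12 (1.29 ± 0.30 SE, adjusted p = 0.00619). At all 4 the adult libraries lay above the P10 libraries, and all 4 calls held in every test without 1 library.

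The strongest loss lay 75.1 kb downstream of *Rps23* (chr2:19774368-19774679). It had 1.17, 1.95 and 0.516 CPM in adults and 3.16, 5.13 and 5.02 in P10 (-1.81 ± 0.39 SE, edgeR adjusted p = 0.00300). *Rps23* also had an ACS 5.18 kb upstream that was called Up (1.06 ± 0.31 SE, adjusted p = 0.0299), so ACSs around 1 gene went both ways. Next to *Rpl34* and *Rpl38*, large-subunit genes, ACSs under 10 kb from the start were called Down. The one 7.38 kb upstream of *Rpl34* had 17.7, 11.0 and 15.9 CPM in adults and 24.7, 20.97 and 21.6 in P10 (-0.60 ± 0.21 SE, adjusted p = 0.0711). The one 7.70 kb downstream of the *Rpl38* start had 13.1, 12.3 and 11.6 CPM against 20.1, 17.7 and 16.8 (-0.56 ± 0.20 SE, adjusted p = 0.0866). Both pairs of groups were apart, but the former call was lost without adult replicate 5 (adjusted p = 0.230) and the latter without adult replicate 6 (0.208). Near *Rpl8*, a large-subunit gene, an ACS 20.8 kb from the start had 4.43, 6.13 and 4.51 CPM in adults and 8.79, 9.06 and 7.03 in P10 (-0.72 ± 0.26 SE, adjusted p = 0.0893), a call lost without adult replicate 4 (0.242), adult replicate 6 (0.214) or P10 replicate 2 (0.273).

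**Figure D4:**
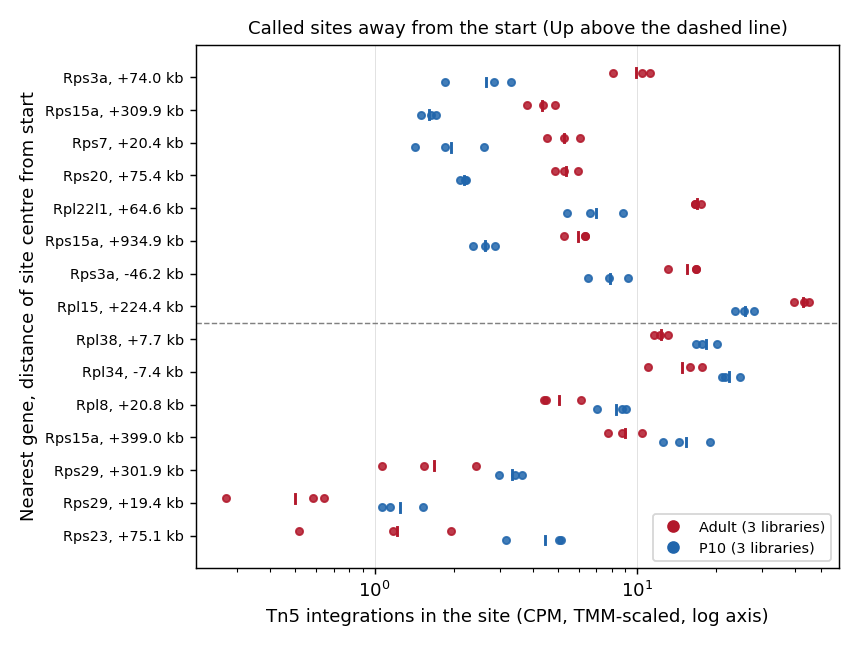
Tn5 integrations (CPM, log axis) per library at the 8 Up and 7 Down ACSs away from starts with the smallest p, labelled by the nearest ribosomal protein gene and the distance of the centre from its start. Above the dashed line all adult points lie to the right of the P10 points, with the widest gap 74.0 kb from *Rps3a*, and below it all lie to the left.

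The 3 genes with the most ACSs held 141 of the 406 (34.7%): *Rps24* with 57, *Rps15a* with 55 and *Rps29* with 29. All encode small-subunit proteins. Their ACSs reached 725, 1036 and 1065 kb from the start in stretches where no other listed gene was nearer. At *Rps24* 2 of 57 were Up and 2 Down, at *Rps15a* 4 of 55 and 3, and at *Rps29* 1 of 29 and 3, beside 13.8% Up and 6.45% Down over all distal ACSs. The median log2 fold changes were 0.03, 0.16 and -0.13. The ACSs at *Rps15a* included gains 310 kb (1.41 ± 0.33 SE, edgeR adjusted p = 0.00567) and 935 kb (1.17 ± 0.29 SE, adjusted p = 0.0091) downstream of the start and a loss 399 kb downstream (-0.76 ± 0.23 SE, adjusted p = 0.0334). The loss had 10.5, 8.77 and 7.73 CPM in adults and 19.0, 14.4 and 12.6 in P10, without overlap. *Rps29*, a gene mutated in some families with Diamond–Blackfan anaemia, had losses 19.4 kb (-1.35 ± 0.50 SE, adjusted p = 0.0975) and 302 kb (-0.97 ± 0.37 SE, adjusted p = 0.103) downstream. The nearer of them was weak, with 0.271, 0.584 and 0.645 CPM in adults and 1.07, 1.14 and 1.53 in P10. Its call was lost without adult replicate 4 (adjusted p = 0.301) or P10 replicate 3 (0.292), and that of the farther one without adult replicate 5 (0.283), adult replicate 6 (0.211), P10 replicate 2 (0.262) or P10 replicate 3 (0.222).

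The starts of these 3 genes were not called. *Rps29* had a highly accessible start, with 56.3, 46.5 and 64.6 CPM in adults and 56.7, 54.0 and 51.5 in P10 (0.04 ± 0.16 SE). *Rps24* had 16.6, 11.3 and 8.64 CPM in adults and 17.2, 16.0 and 11.8 in P10 (-0.29 ± 0.24 SE), and *Rps15a* 6.24, 5.75 and 3.74 against 8.46, 6.21 and 6.56 (-0.42 ± 0.27 SE). The ages overlapped at all 3. Without adult replicate 4 the start of *Rps24* was called Down (adjusted p = 0.199).

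**Figure D5:**
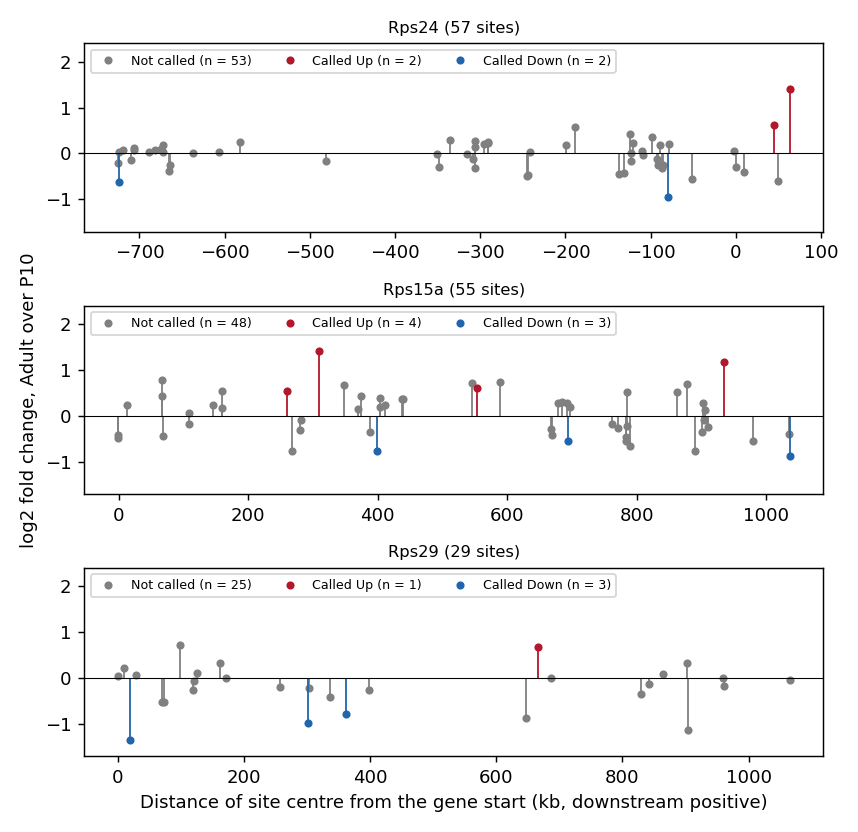
Log2 fold change (Adult over P10) of every ACS assigned to *Rps24*, *Rps15a* and *Rps29* against the distance of its centre from the start in kb, downstream positive. Grey ACSs were not called, and Up and Down calls occur side by side at each of the genes.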

How the data were processed

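Per the paper's methods, reads of the 6 libraries were aligned to the rat genome Rn5 with BWA 0.7.13, alignments were processed with SAMtools 1.3, reads of mitochondrial DNA or with low mapping quality were discarded, and MACS2 2.1.1 called peaks on the concatenated libraries of each age. The authors deposited, for each ACS of the joined set and each library, whole-number counts of Tn5 integrations made with pyDNase, with the nearest gene, its position and a class. Removal of PCR duplicates is not given in the sources used here. Reads of low mapping quality were dropped, which bears on ribosomal protein genes because their processed pseudogenes resemble them, and the effect was not tested. The table also holds the authors' fold changes, p-values and FDRs, which were not used. The counts cover 101941 entries, of which 338 repeat an ACS with a second nearest gene, and 101603 distinct ACSs were tested once each.

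Counts were fitted without a filter in edgeR 4.0.16 (R 4.3.3) with TMM factors, age as the only term and the quasi-likelihood test, with Benjamini-Hochberg adjustment over all ACSs and calls at the study's limits. SE is the log2 fold change over the root of the F value. CPM per kb divides by the width of the ACS. The test was checked on simulated counts. Alternatives were other scalings, DESeq2 1.42.0, limma 3.58.1 (voom, and cyclic loess with a trend), count filters, an FDR under 0.05, autosomes, all entries, and leaving out each library. Promoters came from the RefSeq table of GRCr8, a build other than that of the ACSs, so neither set of coordinates was converted. Sequence of the ACSs themselves was not analysed here.

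The genes, lists and motifs were chosen with earlier results of these data known. Named are the called ACSs (at most 8 with the smallest p in each direction), the 5 highest and 3 lowest starts by CPM per kb, the starts of *Rpl5*, *Rpl11*, *Rps19*, *Rps6*, *Rps3*, *Rpl22*, *Rpl22l1*, *Rpl38*, *Rplp0*, *Rpsa*, *Rpl10*, *Rps4x*, *Rpl36a* and *Rpl39*, and the 3 genes with the most ACSs. Other genes named with values were picked after these were seen. Some members are counted but not reported by name here.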

Additional observations from a re-analysis of the deposited data

How the results depend on the processing

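The count of ribosomal protein ACSs called Up (32) was 21 at an FDR under 0.05, 1 with total reads, and 19 to 46 when 1 library was left out. The count called Down (22) was 2 at an FDR under 0.05, 14 with TMM factors from TSS-class ACSs, 48 with column sums, 45 with cyclic loess, 41 among ACSs with a mean count of at least 50, 264 with total reads, and 10 to 26 without 1 library. Calls over all ACSs also shifted. In the main test 12504 were Up and 6738 Down, at an FDR under 0.05 7177 and 1945, and with total reads 1062 and 61663. At the starts, 0 were called Up in the main test, 1 with TMM factors from TSS-class ACSs and 0 to 2 without 1 library. The 5 starts called Down became 0 at an FDR under 0.05, 3 with TMM factors from TSS-class ACSs, 15 with column sums, 20 with cyclic loess, 19 at a mean count of at least 50, 68 with total reads, and 1 to 7 without 1 library. The median log2 fold change of the starts (-0.20) was -1.04 with total reads and -0.26 to -0.17 without 1 library. The distal median (-0.01) was 0.082 with TMM factors from TSS-class ACSs, -0.11 with column sums, -0.83 with total reads and -0.12 to 0.024 without 1 library. The cause of these shifts was not tested.

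Under total reads, 6 named ACSs changed sign: the distal one at *Rpl15* to -0.12, and the starts of *Rps23* to -0.57, *Rps14* to -0.62, *Rps29* to -0.81, *Rpl22l1* to -0.82 and *Rplp0* to -0.84. Total reads divide by all sequenced reads, so the share of reads outside ACSs enters the values. Among the named ACSs, no other alternative turned the sign of a called one, and at most 4 of the named uncalled ones changed sign under any of them without being called. With DESeq2, 30 of the 32 Up and 19 of the 22 Down calls were kept, and 1 called ACS had no adjusted p. Counting error alone is wide at ACSs of about 1 CPM, such as those near *Rps9* and *Rps29*. No paired analysis was possible because the ages share no replicate number.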

Other observations

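The median log2 fold change of the 172 distal ACSs nearest to small-subunit genes was 0.01, and that of the 94 nearest to large-subunit genes was -0.07. The 30 distal ACSs nearest to paralogues, 20 of them at *Rps4y2*, held 8 Up calls and 1 Down call, beside 13.8% and 6.45% of all distal ACSs. The difference between these groups was not tested. By the matched promoter, the starts of genes with a run of at least 8 C or T bases had a median log2 fold change of -0.23 (33 ACSs, 1 called Down) and those with a shorter run -0.18 (20 ACSs, 1 called Down). The starts of genes without a matched promoter had -0.21 (17 ACSs, 3 called Down).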
